A study of Mus musculus with 15 samples.

Results

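The genes described here encode the machinery that stores neurotransmitter in synaptic vesicles and releases it: synaptotagmins, syntaxins and their binding proteins, SNAP and VAMP proteins, complexins, synapsins, SV2 and Rab3 proteins, and proteins of the active zone. They were chosen by symbol, by a rule that uses no measured value but was set with earlier results of these data known. The rule took every probe annotated *Syt*, *Stx*, *Stxbp*, *Snap*, *Vamp*, *Cplx*, *Syn*, *Sv2*, *Rab3* or *Rims* followed by a number or letter, together with *Syp*, *Bsn*, *Pclo*, *Unc13a* and *Nsf*. This gave 83 probes for 65 genes, of 29922 probes and 16675 symbols on the array. Of these, 72 probes and 59 genes had a value on at least 1 array, and 45 probes had a value on all 15.

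Retinas of C57BL/6J mice with oxygen-induced retinopathy (OIR) were set against normal retinas on 2-colour arrays. OIR pups were kept in 75% ± 2% oxygen for 5 days from P7, returned to room air at P12, and sampled at P8 (during hyperoxia), P12 (its end) or P13 (after return to room air), whereas wild-type pups of the same strain stayed in room air from birth. The comparisons were P8-O/P8-N at P8, P12-O/P12-N at P12 and P13-O/P13-N at P13 (OIR over age-matched normal retina), P13-O/P9-N (OIR at P13 over normal at P9), and P9-N/P30-N (normal at P9 over normal at P30, the deposited values with their sign turned). Each had 3 arrays, and each array compared 2 pools of 10 neural retinas from 5 mice, so that no value belongs to a single animal.

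Release of transmitter depends on SNARE proteins. VAMP on the vesicle pairs with syntaxin and SNAP25 on the plasma membrane, complexin binds the assembled bundle, synaptotagmin senses calcium and triggers fusion, and the ATPase NSF takes the bundle apart afterwards. Photoreceptors and bipolar cells release from ribbon synapses, which use syntaxin 3 in place of syntaxin 1 and carry complexins 3 and 4, whereas conventional synapses of amacrine cells carry complexins 1 and 2. Ribbon synapses of the mouse retina mature in the weeks around eye opening.

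Promoter sequences are shown for 4 genes that the results below turn on: *Syn1* (lower at the end of hyperoxia), *Sv2b* and *Cplx1* (lower in young retina) and *Syt16* (higher in young retina). Each is the 250 bases before the annotated start site, 5′ to 3′ on the strand of the gene, from RefSeq on GRCm38.p6. *Syn1* lies on the minus strand at chrX:20920919-20921168, *Cplx1* on the minus strand at chr5:108550028-108550277, and *Syt16* on the plus strand at chr12:73997527-73997776. Of 4 start sites of *Sv2b*, all on the minus strand of chromosome 7, the window at chr7:75309263-75309512 (start 1) and the one at chr7:75302610-75302859 (start 3) are shown, since each holds a capitalised motif.
Syn1: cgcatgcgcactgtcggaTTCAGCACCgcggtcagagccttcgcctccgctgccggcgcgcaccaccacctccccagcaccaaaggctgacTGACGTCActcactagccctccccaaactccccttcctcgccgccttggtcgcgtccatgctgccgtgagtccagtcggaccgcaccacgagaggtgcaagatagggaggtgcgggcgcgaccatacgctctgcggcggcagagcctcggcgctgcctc
Sv2b, start 1: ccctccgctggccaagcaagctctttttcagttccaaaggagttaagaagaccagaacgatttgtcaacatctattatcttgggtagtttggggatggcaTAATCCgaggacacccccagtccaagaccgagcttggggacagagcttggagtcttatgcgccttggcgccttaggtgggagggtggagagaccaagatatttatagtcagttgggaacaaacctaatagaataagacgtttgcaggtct
Sv2b, start 3: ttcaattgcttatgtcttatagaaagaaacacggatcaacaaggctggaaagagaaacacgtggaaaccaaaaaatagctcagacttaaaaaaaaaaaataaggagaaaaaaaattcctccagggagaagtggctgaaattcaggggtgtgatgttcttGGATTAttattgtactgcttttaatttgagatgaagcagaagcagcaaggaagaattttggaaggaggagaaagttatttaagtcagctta
Cplx1: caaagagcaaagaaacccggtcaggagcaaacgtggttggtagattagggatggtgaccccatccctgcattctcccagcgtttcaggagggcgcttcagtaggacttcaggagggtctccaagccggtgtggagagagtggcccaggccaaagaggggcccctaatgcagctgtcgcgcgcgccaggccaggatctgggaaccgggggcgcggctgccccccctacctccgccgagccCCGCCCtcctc
Syt16: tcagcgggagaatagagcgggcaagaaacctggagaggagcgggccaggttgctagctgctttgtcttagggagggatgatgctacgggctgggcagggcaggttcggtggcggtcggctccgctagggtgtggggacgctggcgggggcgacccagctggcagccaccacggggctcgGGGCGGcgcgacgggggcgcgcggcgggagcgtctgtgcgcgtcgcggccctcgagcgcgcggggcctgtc
Capitals mark matches, on either strand, to 4 motifs that do not overlap here. GGATTA, the core bound by the photoreceptor factor CRX, occurred in 6.25% of all 32851 windows of this length. It occurred in the *Sv2b* windows of start 1 and start 3, which were picked for holding a motif. The windows of start 2 and start 4 did not hold it. TGACGTCA, the cAMP response element, occurred in *Syn1* and in 1.55% of all windows, and TTCAGCACC, the first letters of the element bound by the neuronal repressor REST, in *Syn1* and in 0.301%. GGGCGG, the GC box, occurred in *Cplx1* and *Syt16* and in 32.7% of all windows. Among the 67 windows of the 52 member genes that could be matched, GGATTA was found in 4 (5.97%), at *Sv2b*, *Rims3* and *Syp*, and GGGCGG in 39 (58.2%). A match of letters is a description of the sequence and not evidence of binding.

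An array held 12008 to 21189 values, of which 47 to 68 were of members, and the median of each array lay between -0.03 and 0.01. Replicate arrays correlated over all probes at r = 0.83 to 0.90 in P9-N/P30-N, 0.42 to 0.61 in P13-O/P9-N, 0.34 to 0.52 in P12-O/P12-N, 0.04 to 0.46 in P13-O/P13-N and -0.20 to 0.21 in P8-O/P8-N. A probe was tested where at least 2 of 3 arrays had a value, by limma across all probes, and called at a Benjamini-Hochberg adjusted p under 0.05. All values are log2 ratios, so that -1 is a level lower by a factor of 2, and none is a level. In tissue of many cell types, fewer cells of a type and less RNA per cell cannot be told apart.

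The plot of all members with complete values shows the largest values in P9-N/P30-N. The median absolute log2 ratio of the members on an array was 0.36 to 0.42 in P9-N/P30-N, 0.19 to 0.21 in P13-O/P9-N and 0.13 to 0.21 in the 3 age-matched OIR comparisons, so that the last 2 ranges overlap.

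**Figure D1:**
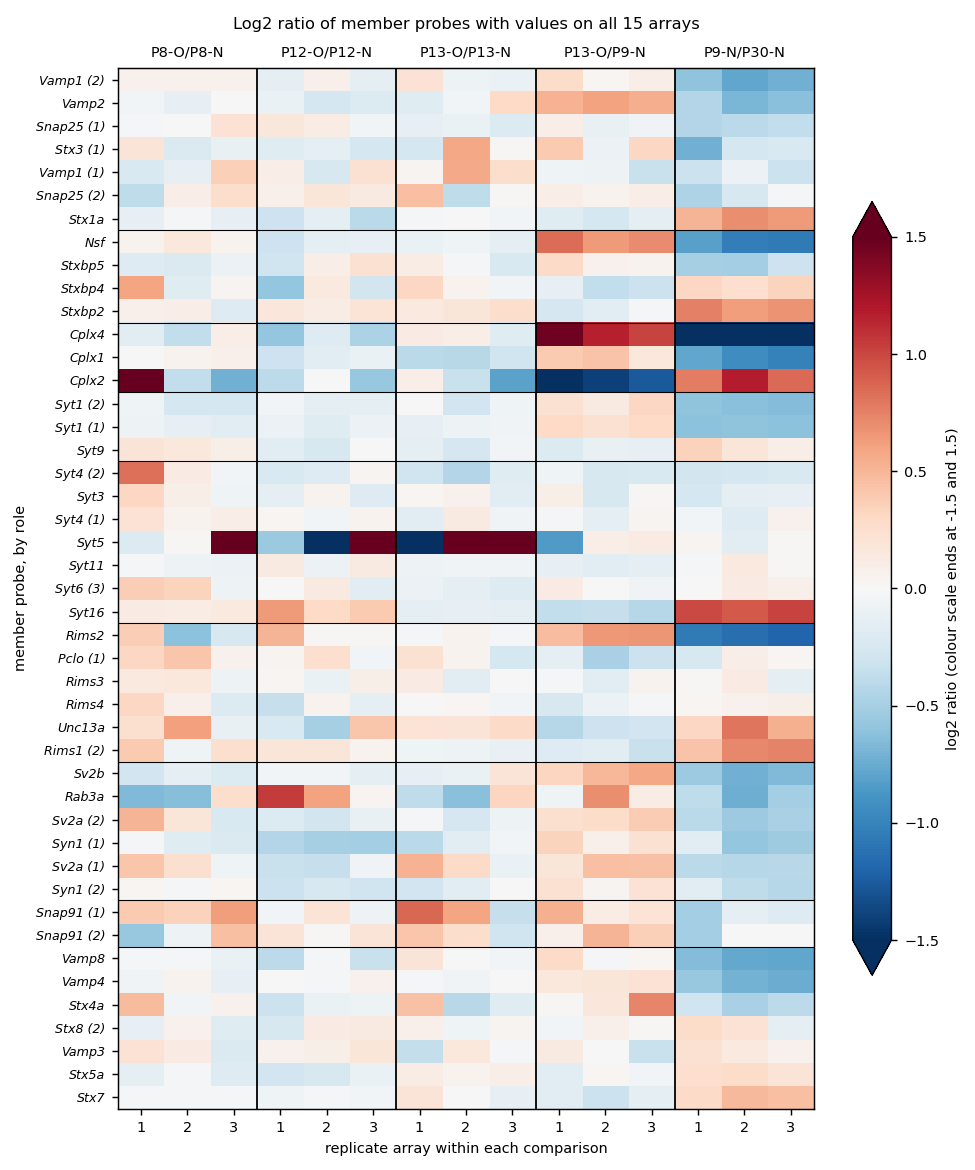
Log2 ratio of the 45 member probes with values on all 15 arrays (rows, by role and then by their mean in P9-N/P30-N; a number in brackets tells probes of 1 gene apart) on each array (columns, 3 per comparison). Blue is lower and red higher in the first-named retina, and colours end at -1.5 and 1.5. *Cplx4*, *Nsf* and *Rims2* are blue in P9-N/P30-N and red in P13-O/P9-N on every array, and *Syt5* changes between blue and red within a comparison.

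Normal maturation was the comparison in which most members differed. In P9-N/P30-N, 26 of 48 member probes were called (54.2%), beside 33.8% of all probes tested, with 18 lower at P9 (16.2% of all probes) and 8 higher (17.5%). The median log2 ratio of the members was -0.24, beside 0.01 over all probes, and their median absolute log2 ratio was 0.40 beside 0.20. By gene, 15 of 41 had a probe called lower and 8 a probe called higher. With probes averaged per gene, 14 of 41 were lower and 8 higher, beside 17.5% and 19.7% of all genes. The share of members called higher was thus near that of all probes and of all genes. Genes of the same family fell on both sides, as the next paragraphs show.

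Of the SNARE proteins that drive vesicle fusion, the vesicle SNAREs and SNAP25 were lower in young retina and syntaxin 1A was higher. *Vamp2*, the main vesicle SNARE of brain, had log2 ratios of -0.43, -0.69 and -0.62, a mean of -0.58 (SE 0.09, adjusted p = 0.00013). *Vamp1*, its close relative, was at -0.61, -0.78 and -0.72 with 1 probe (mean -0.70, SE 0.08, adjusted p = 1.3e-05), while the other, at -0.33, -0.09 and -0.32, did not pass (adjusted p = 0.16). *Snap25* likewise passed with 1 of its 2 probes, at -0.44, -0.41 and -0.37 (mean -0.41, adjusted p = 0.00052), and the other had a mean of -0.24 (adjusted p = 0.21). Every one of these values was below 0, so the probes of a gene had the same sign and differed in size and spread. *Stx1a*, the syntaxin of conventional synapses, stood on the other side of 0, with 0.51, 0.70 and 0.64 (mean 0.61, SE 0.07, adjusted p = 9.9e-06), a level 1.53-fold higher at P9. *Stx3*, the syntaxin of ribbon synapses, was at -0.72, -0.26 and -0.23, with a mean of -0.40 (adjusted p = 0.049). Replicate 1 carried much of that mean, and the call was lost when any array was left out (adjusted p = 0.066 to 0.31).

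Among the proteins that act on the SNAREs, *Nsf* was at -0.82, -1.04 and -1.06, so that its mean of -0.97 (SE 0.07, adjusted p = 2.1e-07) stands for a level 1.96-fold lower at P9 than at P30. *Stxbp5*, the gene of tomosyn, which holds SNAREs in an inactive bundle, was also lower (mean -0.44, adjusted p = 0.0033). *Stxbp2*, the gene of the munc18 form best known from secretion in blood and epithelial cells, was higher at 0.76, 0.63 and 0.68 (mean 0.69, adjusted p = 6.0e-06). *Stxbp4* had a mean of 0.30 that did not pass (adjusted p = 0.12), and *Stxbp6* was blank on every array.

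The 4 complexins did not share a direction. *Cplx4*, a complexin of photoreceptor ribbon synapses, had the largest difference of all members, at -1.86, -1.82 and -1.84. The 3 values are nearly the same, and the mean of -1.84 (SE 0.11, adjusted p = 3.1e-08) is a level 3.59-fold lower at P9. *Cplx1* was at -0.78, -0.93 and -1.02 (mean -0.91, SE 0.07, adjusted p = 5.8e-07), 1.88-fold lower. *Cplx3*, the other ribbon complexin, was at 0.02, -0.28 and -0.45, on both sides of 0 and without a call (adjusted p = 0.31, 95% interval -0.62 to 0.13). *Cplx2* was above 0 on each array, at 0.77, 1.18 and 0.85, but its mean of 0.93 did not pass (adjusted p = 0.12), because the same probe varied widely in other comparisons and the fit shares 1 spread per probe (SE 0.44).

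**Figure D2:**
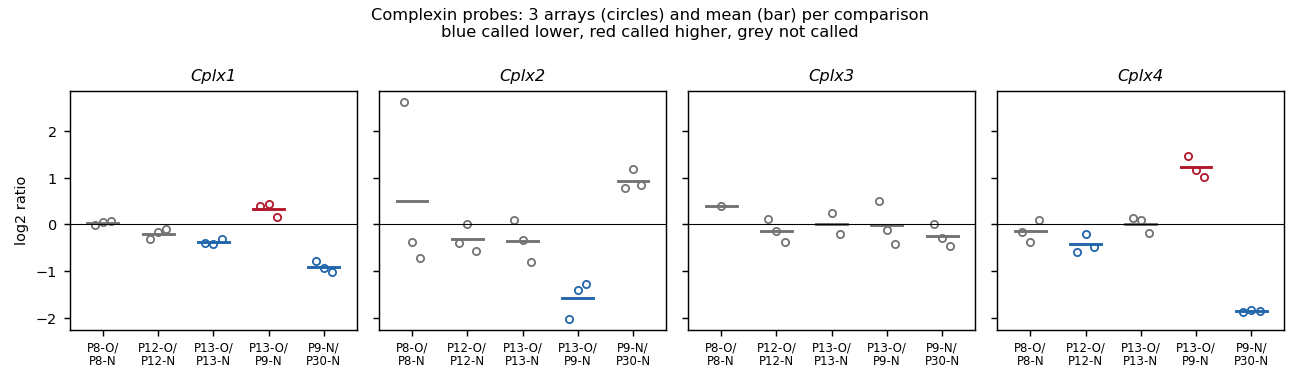
Log2 ratios of the 4 complexin probes in the 5 comparisons (circles, 3 arrays each where a value was given; bars, means). *Cplx4* goes from a mean of -1.84 in P9-N/P30-N to 1.22 in P13-O/P9-N, and the *Cplx2* value of 2.61 at P8 stands apart from the other 2 arrays of that comparison.

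Of the calcium sensors, *Syt1*, which triggers fast release in most neurons, was measured by 2 probes that gave nearly the same values. The first was at -0.61, -0.61 and -0.62 (mean -0.61, adjusted p = 1.7e-06) and the second at -0.60, -0.62 and -0.65 (mean -0.62, adjusted p = 1.3e-05). *Syt9* was higher by 0.21 (adjusted p = 0.038), a call lost without replicate 1 or 2. *Syt2* was at 0.20, -0.24 and -0.08. Of the other synaptotagmins, many of which lack the calcium-binding residues or serve other membranes, *Syt16* alone was called: at 0.99, 0.92 and 1.01 it was 1.97-fold higher at P9 (mean 0.98, SE 0.07, adjusted p = 1.3e-07). The remaining 6 probes tested, of *Syt3*, *Syt4*, *Syt5*, *Syt6* and *Syt11*, had means between -0.25 and 0.06.

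Active zone proteins split as the SNAREs did. *Rims2*, a scaffold that ties vesicles to calcium channels, was at -1.06, -1.13 and -1.19 (mean -1.13, SE 0.14, adjusted p = 3.1e-05), 2.19-fold lower at P9. Its paralogue *Rims1* was at 0.43, 0.72 and 0.75 with the 1 probe that could be tested (mean 0.63, SE 0.09, adjusted p = 8.2e-05), and the ranges of the 2 genes did not overlap. *Unc13a*, which encodes the priming factor munc13-1, was higher with a wider spread, at 0.31, 0.80 and 0.53 (mean 0.55, adjusted p = 0.013), and lost the call without replicate 2 or 3. *Rims3*, *Rims4* and the tested probe of *Pclo*, which encodes the scaffold piccolo, had means of 0.00, 0.06 and -0.04. *Bsn*, the gene of bassoon, which anchors the ribbon, had no value in this comparison.

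Every vesicle protein that was called was lower at P9. *Sv2b*, the SV2 form of photoreceptor and bipolar terminals, was at -0.55, -0.72 and -0.66 (mean -0.64, SE 0.08, adjusted p = 2.2e-05). *Sv2a* was lower with both probes, at means of -0.41 and -0.48 (adjusted p = 0.012 and 0.0029), and the first lost its call without replicate 2 or 3 (adjusted p = 0.058 and 0.055). *Syn1*, which encodes synapsin I, a protein of conventional but not of ribbon terminals, was lower with both probes too, at -0.15, -0.58 and -0.53 (mean -0.42) and at -0.17, -0.38 and -0.43 (mean -0.33), with replicate 1 the nearest to 0 in each. *Rab3a*, the small GTPase that brings vesicles to the active zone, was at -0.38, -0.74 and -0.51 and did not pass (adjusted p = 0.083). *Syp*, the gene of synaptophysin and a common marker of synapses, was at 0.33, -0.37 and -0.25, with no direction shared by the arrays (95% interval -0.46 to 0.27).

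The general SNAREs, which serve the Golgi, endosomes or the plasma membrane of all cells, were taken by the same symbols. Of 7 probes tested, *Vamp8* (-0.73) and *Vamp4* (-0.67) were lower and *Stx7* (0.41) and *Stx5a* (0.24) higher, with adjusted p from 1.7e-06 to 0.012, while *Stx4a*, *Stx8* and *Vamp3* did not pass. The call of *Stx5a* was lost without replicate 1 or 2. *Snap91*, whose symbol resembles that of *Snap25* but whose product AP180 assembles clathrin coats, had means of -0.28 and -0.16 with its 2 probes and no call. The genes that serve all membranes were thus among those that differed, as well as those of the synapse.

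**Figure D3:**
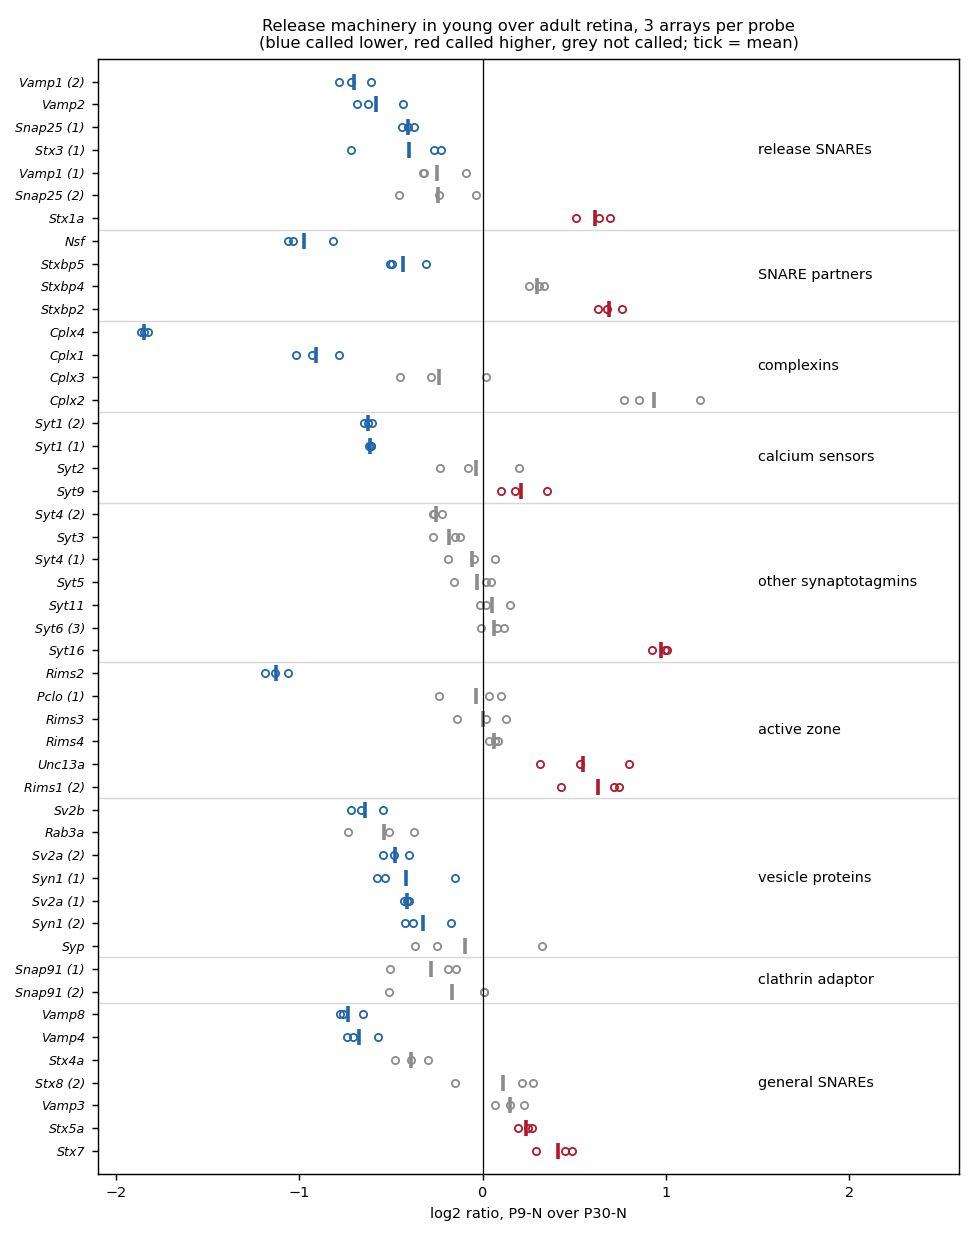
Log2 ratio of P9-N over P30-N for the 48 member probes tested, by role (circles, 3 arrays; tick, mean; blue called lower, red called higher, grey not called). The 5 called vesicle protein probes all lie left of 0, between -0.64 and -0.33, and SNAREs, complexins and active zone proteins lie on both sides.

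Other genes of the synaptic vesicle cycle were examined as 4 lists, with probes averaged per gene. Like the marker lists below, they were chosen with earlier results of these data known. Their calls stand beside 37.3% of all genes called (19.7% higher and 17.5% lower). Of 13 genes of vesicle loading and vesicle membrane tested in P9-N/P30-N, 8 were lower and 0 higher (median -0.29, beside 0.01 for all genes), among them the glutamate transporter of photoreceptor and bipolar vesicles *Slc17a7* (-1.07), the GABA and glycine transporter *Slc32a1* (-0.69) and *Scamp5* (-0.67). Of 15 release accessories, 8 were lower and 2 higher (median -0.22), with *Sncb*, which encodes β-synuclein, at -0.95 and *Napb*, a partner of NSF, at -0.64. The active zone and ribbon list had 4 lower and 2 higher of 16 (median 0.08), and the 4 included the calcium channel of photoreceptor terminals *Cacna1f* (-1.06) and its modulator *Cabp4* (-1.79). Membrane retrieval had 4 lower and 5 higher of 17 (median -0.01), with *Pacsin1* at -1.12 and dynamin 1 (*Dnm1*) at -0.66.

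Markers of cell types moved in the same comparison. Of 10 rod markers tested, 9 were lower at P9 and 0 higher, with the median of the list between -1.06 and -0.98 on the 3 arrays, and of 7 cone markers 4 were lower and 1 higher. All 6 markers of young neurons and progenitors that were tested were higher (array medians 1.36 to 1.77). Bipolar markers had 2 lower of 5, amacrine and horizontal markers 2 lower and 2 higher of 6, and ganglion cell markers 2 lower and 1 higher of 6. Of markers of other cells, 5 of 6 endothelial (array medians 0.34 to 0.45), 3 of 4 microglial (0.44 to 0.52) and 2 of 3 pigment epithelium markers (0.68 to 0.98) were higher and 0 lower, and Müller glia markers had 2 higher and 3 lower of 5. All 4 lens markers tested were lower, with array medians from -2.32 to -0.26. The part of these cell types in the differences of the release genes was not tested.

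OIR retina at P13 was higher than normal retina at P9 for several of the genes that were lower at P9 than at P30. In P13-O/P9-N, whose direction is likely rather than stated, 9 of 64 member probes were called (14.1%), beside 8.5% of all probes, 7 of them higher (4.55% of all probes) and 2 lower (3.96%). With the direction turned, each value of P13-O/P9-N takes the opposite sign, and the same 9 calls are 2 higher and 7 lower. P13-O/P9-N and P9-N/P30-N both contain normal retina at P9, so that their opposite signs are no independent observation, and they also differ in age and in oxygen history. *Cplx4* was at 1.46, 1.17 and 1.02 (mean 1.22, SE 0.11, adjusted p = 1.3e-05), 2.32-fold higher in OIR at P13. *Nsf* was at 0.83, 0.64 and 0.70 (mean 0.72, adjusted p = 2.6e-05), *Vamp2* at 0.52, 0.61 and 0.54 (mean 0.56, adjusted p = 0.0010) and *Sv2b* at 0.32, 0.49 and 0.58 (mean 0.46, adjusted p = 0.0017). All 12 of these values were above 0.

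The other 3 higher calls were less firm. *Rims2* was at 0.47, 0.65 and 0.67 (mean 0.59, adjusted p = 0.018), and its call was lost without any of the 3 arrays (adjusted p = 0.053 to 0.10). *Cplx1*, at 0.40, 0.42 and 0.16 (mean 0.33, adjusted p = 0.013), lost the call without replicate 1 or 2, and *Syt1*, at 0.30, 0.23 and 0.30 with its first probe (mean 0.27, adjusted p = 0.0068), without replicate 1. The second *Syt1* probe was at 0.23, 0.14 and 0.31 and did not pass (adjusted p = 0.071). Of the 2 genes that were lower, *Syt16* was at -0.37, -0.35 and -0.42 (mean -0.38, SE 0.07, adjusted p = 0.0025). *Cplx2* was at -2.01, -1.40 and -1.26 (mean -1.56, SE 0.44, adjusted p = 0.044) and was not called without any of the 3 arrays (adjusted p = 0.11 to 0.21).

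**Figure D4:**
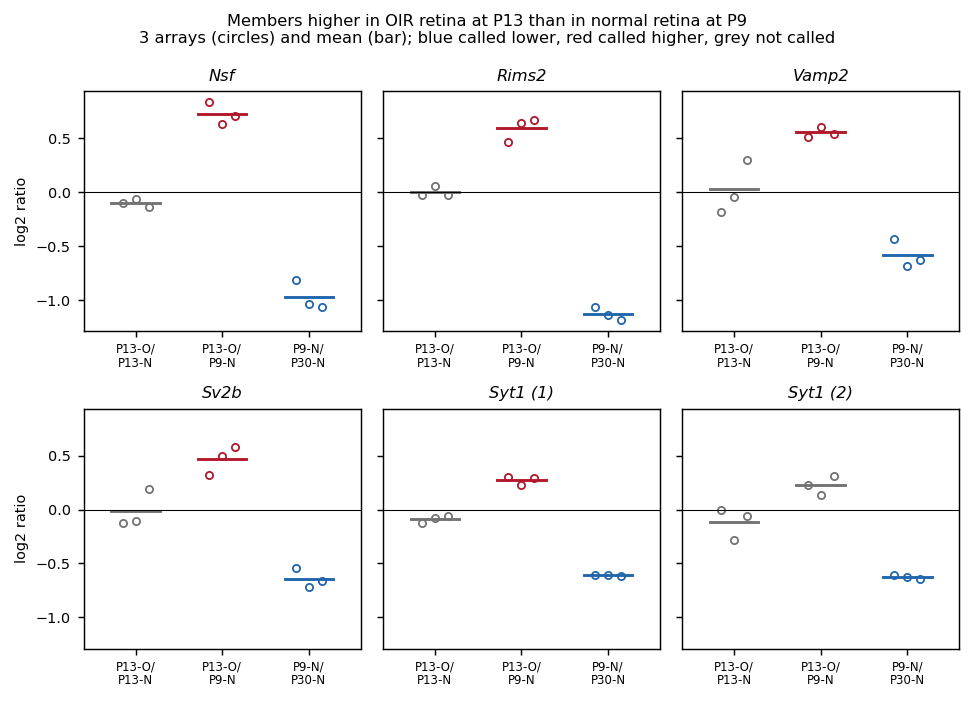
Log2 ratios of 5 genes (6 probes) called higher in P13-O/P9-N with at least 1 probe (circles, 3 arrays; bars, means; blue called lower, red called higher, grey not called). Each probe shown has its mean above 0 in P13-O/P9-N, below 0 in P9-N/P30-N and near 0 in P13-O/P13-N. Both outer comparisons share a retina with the middle one. *Cplx4* and *Cplx1*, also called higher in P13-O/P9-N, are drawn with the complexins and not here. In P13-O/P13-N the mean of *Cplx4* was 0.02, whereas *Cplx1* was called lower (mean -0.37).

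The difference between P13-O/P9-N and P13-O/P13-N, in which the OIR retina at P13 cancels, gives normal retina at P13 over P9 indirectly. In it 6 of 53 member probes were called, all higher, beside 4.54% of all probes (2.83% higher). They were *Cplx4* (1.20, SE 0.15, adjusted p = 0.00049), *Nsf* (0.82, adjusted p = 0.00036), *Cplx1* (0.70, adjusted p = 0.0016), *Vamp2* (0.53, adjusted p = 0.023), *Sv2b* (0.48, adjusted p = 0.023) and *Syt1* (0.36, adjusted p = 0.017). *Cplx4*, *Nsf* and *Cplx1* kept their calls whichever array of either comparison was left out, and the other 3 lost theirs in 4 or 5 of the 6 leave-outs. With the direction of P13-O/P9-N turned, 6 member probes were called, 1 higher (*Syt16*, 0.51) and 5 lower (*Cplx4*, -1.23, *Nsf*, -0.63, *Sv2a* probe 1, -0.60, *Vamp2*, -0.58, and *Sv2b*, -0.45). The OIR retina cancels under whichever direction is the true one, and not under the other. The estimate uses the P13-O/P9-N arrays again and is not a second measurement of them.

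Rod markers were higher in 8 of 10 and lower in 0 in P13-O/P9-N (array medians 0.47 to 0.63), and all 6 young neuron markers tested were lower (array medians -0.83 to -0.63). Müller glia markers had 3 higher of 6, cone markers 2 higher and 1 lower of 7, bipolar markers 2 higher of 5, ganglion cell markers 1 higher of 7, endothelial markers 2 lower of 6, and amacrine and horizontal and microglial markers 1 lower of 6 each. Their part in the release genes was not tested. Of the lists, vesicle loading had 3 higher and 0 lower of 13, release accessories 3 and 0 of 16, active zone and ribbon 3 and 2 of 17, and retrieval 3 and 1 of 18, beside 10.4% of all genes called (5.65% higher and 4.77% lower). *Slc17a7* (0.85), *Cabp4* (0.99), *Cacna1f* (0.56) and *Pacsin1* (0.71) were among those that were higher, and the scaffold genes *Cask* (-0.44) and *Erc2* (-0.28) among those that were lower.

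Against age-matched normal retina, few release genes differed in OIR. At P8, after 1 day of oxygen, 0 of 52 member probes were called by limma, beside 0.637% of all probes, and 8 had an unadjusted p under 0.05. SAM, run on the 47 with complete values, also called 0. Most core genes lay close to 0: *Nsf* was at 0.06, 0.16 and 0.05, *Vamp2* at -0.04, -0.12 and 0.00, and *Cplx1* at -0.01, 0.05 and 0.07. Both *Syt1* probes lay below 0 on each array and did not pass, the first at -0.08, -0.13 and -0.15 (adjusted p = 0.45, 95% interval -0.24 to 0.00) and the second at -0.06, -0.27 and -0.27 (adjusted p = 0.32, 95% interval -0.35 to -0.05). The second had the lowest adjusted p of the members at P8. The largest values came from single arrays, such as *Cplx2* at 2.61, -0.37 and -0.72.

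At P12, at the end of hyperoxia, 5 of 61 member probes were called (8.20%), beside 7.08% of all probes, with 1 higher (3.2% of all) and 4 lower (3.88%), a share near that of all probes. *Syt16* was higher, at 0.64, 0.30 and 0.40 (mean 0.45, SE 0.07, adjusted p = 0.0032), and was the only one of the 5 that kept its call without any of the 3 arrays. *Syn1* fell with both probes, at -0.44, -0.50 and -0.51 (mean -0.48, SE 0.09, adjusted p = 0.011) and at -0.32, -0.24 and -0.30 (mean -0.29, SE 0.07, adjusted p = 0.033). The 6 values were all below 0 and close together. *Cplx4* was at -0.58, -0.19 and -0.47 (mean -0.42, adjusted p = 0.035) and *Stx1a* at -0.31, -0.14 and -0.41 (mean -0.28, adjusted p = 0.025). Without replicate 1 or replicate 3 of P12, 1 member probe was called, *Syt16*, and the 4 lower calls were lost (adjusted p = 0.075 to 0.23). All probes called fell there from 1169 to 111 and 175. The second *Syn1* probe also lost its call without replicate 2 (adjusted p = 0.064).

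Each of the 4 lists of neighbouring genes had calls at P12, mostly lower, beside 8.82% of all genes called (3.63% higher and 5.19% lower). Lower were 2 of 13 genes of vesicle loading (*Slc17a7*, -0.46, and *Atp6v0a1*, -0.43), 1 of 16 release accessories (*Sncb*, -0.52) and 3 of 17 retrieval genes (*Dnm1*, -0.34, *Pacsin1*, -0.28, and *Sh3gl1*, -0.22). In the active zone list *Cabp4* (-0.58) and *Cacna1f* (-0.44) were lower and the scaffold gene *Ppfia2* (0.53) higher, of 17. Of 10 rod markers 3 were lower and 0 higher (array medians -0.09 to -0.01), with *Gnat1* at -0.77, -0.41 and -1.02, and of 6 endothelial markers 5 were lower (array medians -0.73 to -0.60). Cone markers had 1 lower of 7, amacrine and horizontal markers 1 lower of 6, young neuron markers 1 higher of 6 and lens markers 1 higher of 4. The part of these cells in the release genes was not tested.

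At P13, after return to room air, 1 of 53 member probes was called, beside 1.51% of all probes (0.547% lower). *Cplx1* fell, at -0.40, -0.41 and -0.30 (mean -0.37, SE 0.07, adjusted p = 0.023), a level 1.29-fold lower in OIR, and the call was lost without replicate 1 or 2 (adjusted p = 0.14 and 0.23). The genes called at P12 had smaller means at P13: *Syn1* was at -0.20 and -0.15 with its 2 probes, *Stx1a* at -0.02, *Cplx4* at 0.02 and *Syt16* at -0.13. None of the 4 pathway lists had a called gene at P13, beside 1.85% of all genes, and rod markers had 0 of 10 (array medians -0.12 to -0.05). Endothelial markers had 2 lower of 6 (array medians -0.33 to -0.11), Müller glia markers 1 higher and 1 lower of 6, young neuron markers 1 higher of 6, and the other 7 marker lists 0. The part of these cells in the difference of *Cplx1* was not tested.

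**Figure D5:**
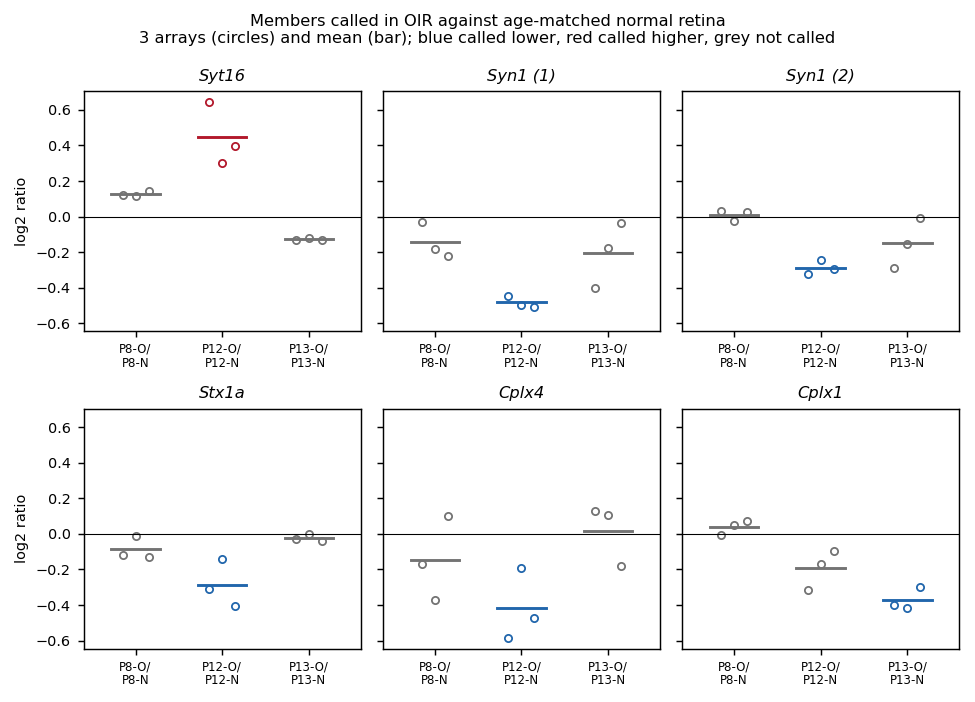
Log2 ratios of the 5 genes (6 probes) called in OIR over age-matched normal retina at any age (circles, 3 arrays; bars, means; blue called lower, red called higher, grey not called). *Syt16* is above 0 on each array at P8 and P12 and below 0 on each array at P13, and both *Syn1* probes have their lowest mean at P12.

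Whether the response differed between ages was tested as a contrast of the same fit. Between P13 and P12, 1 of 53 member probes was called, beside 2.55% of all probes: *Syt16*, whose log2 ratio was lower at P13 by 0.58 (95% interval -0.78 to -0.37, adjusted p = 0.0071). The P12 calls of *Syn1*, *Stx1a* and *Cplx4* were not shown to differ from P13, with differences of 0.28 and 0.14, 0.26 and 0.43 (adjusted p = 0.15 to 0.53). Between P13 and P8, 0 of 48 were called by limma, beside 1.5% of all probes, and 7 had an unadjusted p under 0.05. *Cplx1* differed there by -0.41 (95% interval -0.63 to -0.19, adjusted p = 0.084), which did not pass.

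*Syt16* thus had a called difference in 3 of the 5 comparisons: it was higher in young than in adult normal retina, higher in OIR at P12, and lower in OIR at P13 than in normal retina at P9. *Cplx4* was also called in 3, with the opposite sign in each, and *Cplx1* in 3. P13-O/P9-N and P9-N/P30-N share normal retina at P9, whereas P12-O/P12-N shares no retina with either.

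Some members varied widely between arrays. *Syt5* ranged from -2.23 to 3.02 over its arrays and was at -2.21, 3.02 and 2.80 within P13-O/P13-N. *Rab3a* was above 0 on each array at P12, at 1.05, 0.60 and 0.04, without passing, and on both sides of 0 at P8, at -0.66, -0.64 and 0.26. Another 15 genes were tested only outside P9-N/P30-N and gave no call: *Bsn*, *Rab3b*, *Rab3c*, *Rab3d*, *Snap23*, *Stx2*, *Stx6*, *Stx12*, *Stx18*, *Syn3*, *Syt7*, *Syt8*, *Syt12*, *Syt13* and *Syt17*. *Stx16*, *Sv2c* and *Syt14* had 1 value each, and *Stx11*, *Stx17*, *Stx19*, *Stxbp6*, *Syt10* and *Syt15* were blank throughout. Of all member probes, 13.3% were blank on every array, beside 26.6% of all probes.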

How the data were processed

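Normal and OIR mouse retinas were compared on 15 2-colour arrays in 5 comparisons, grouped by the sample titles. The deposited values are log2 ratios that the authors had normalized, and each sample stands for a dye-swapped pair of hybridizations per the labels. How they were normalized and background-corrected, how dye orientations were combined and why values were left blank is not given in the sources used here. Ratios were read as channel 2 over channel 1 for the OIR comparisons. With this direction *Vegfa* was at -1.78, -0.52 and 1.22 in OIR at P8, P12 and P13, and *Gnat1* at -3.25 in P9-N/P30-N. For P13-O/P9-N the order of channels in the labels was the basis. With it *Gnat1* was at 2.48 and *Vegfa* at 1.33.

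Symbols came from the platform annotation (21020 probes with 1 symbol, 8902 with none), and all 65 member symbols were current in the RefSeq table of GRCm38.p6. With limma 3.58.1 (R 4.3.3, eBayes, no trend), all 15 arrays entered 1 linear model that had a separate mean for each comparison. Probes with values on at least 2 of 3 arrays of a comparison were tested against 0, with Benjamini-Hochberg adjustment across all of them. Calls needed an adjusted p under 0.05 and no fold cutoff. Differences between ages were contrasts of this model. Pools of OIR retina at P13, and of normal retina at P9, may each serve in 2 comparisons, which the model does not use. Genes in the 4 pathway and 11 marker lists had their probes averaged and were fitted in the same way, in this setting only. The procedure was tested on simulated data. Plots were made in Python 3.11.15 with matplotlib 3.10.9.

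Members and lists were chosen with earlier results of these data known. Array values were given for many of the neuronal core genes and called members, though not in every comparison. The rest were given by mean, range or count. For arrays, their number limits the precision. The p-values of the linear model rest on a spread per probe shared by all 15 arrays, not only the 3 of a comparison. That spread is between pools of retinas.

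The alternatives were a separate fit per comparison, SAM (one-class, 1.5-fold cutoff, 1% false discovery rate), limma with a 1.5-fold cutoff, median centring, scaling to 1 median absolute deviation, complete values only, array weights with robust eBayes, probes averaged per gene, blocking on the replicate number, and dropping each array once. Turning the sign of P13-O/P9-N was added after seeing the data.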

Additional observations from a re-analysis of the deposited data

Results flagged for a closer look

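The response of *Syt16* to OIR differed between ages, which a contrast of the limma fit tested directly. Its log2 ratio was 0.64, 0.30 and 0.40 at P12 and -0.13, -0.12 and -0.13 at P13, and the difference was -0.58 (SE 0.09, adjusted p = 0.0071). The ratio was above 0 in 3 of 3 arrays at P12 and below 0 in 3 of 3 at P13, and at neither age did the arrays of the other overlap with it. No other member probe was called in a contrast of the OIR response between ages.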

How the results depend on the processing

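Of 266 named log2 ratios, 48 were called. Apart from the turned direction of P13-O/P9-N, given last, none of these changed sign under any alternative of processing run. A sign could not change with the fold cutoff, SAM, the separate fit or complete values only, which keep the same means. Of the called ratios, 31 kept their call whichever array was left out and 17 lost it in at least 1 leave-out. Calls lost were 12 of those fitted in a separate fit per comparison, 23 with SAM, 27 with the 1.5-fold cutoff, 8 with scaling to 1 median absolute deviation and 1 with probes averaged per gene.

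Counts of called member probes moved as follows. In P12-O/P12-N (5 called) it was 0 in a separate fit, with SAM or with the fold cutoff, and 1 to 5 leaving out an array. All probes called there went from 1169 to 47, 65 and 210 in these 3 settings, and to 111 to 918 leaving out an array. In P13-O/P13-N (1) the member count was 0 under the same 3 and 0 to 2 leaving out an array. All probes called went from 218 to 0, 34 and 106, and to 44 to 349 leaving out an array. In P13-O/P9-N (9) the member count was 5 in a separate fit, 4 with SAM and 4 with the fold cutoff. It was 18 with array weights and 5 to 7 leaving out an array. All probes called went from 1603 to 729, 448, 507 and 2716, and to 882 to 972 leaving out an array. In P9-N/P30-N (26) the member count was 15 with SAM, 14 with the fold cutoff and 21 to 23 leaving out an array. All probes called went from 4665 to 1574 and 1663, and to 3235 to 3859 leaving out an array. For members, P13-O/P13-N minus P8-O/P8-N (0) gave 1 after scaling and 0 to 2 leaving out an array. All probes called went from 194 to 328 after scaling. For members, P13-O/P13-N minus P12-O/P12-N (1) gave 2 with array weights, 0 with the fold cutoff and 1 to 3 leaving out an array. All probes called went from 360 to 806 with array weights and 218 with the fold cutoff. For members, the indirect P13-N/P9-N (6) gave 10 with array weights, 3 with the fold cutoff and 3 to 6 leaving out an array. All probes called went from 653 to 1112 with array weights and 384 with the fold cutoff. In P8-O/P8-N every alternative gave 0 members. Leaving out an array also raised member counts. Without P13-O/P13-N replicate 3 it was 2 in P13-O/P13-N (all probes 349) and 3 in P13-O/P13-N minus P12-O/P12-N (all probes 455). Without P8-O/P8-N replicate 3 it was 2 in P13-O/P13-N minus P8-O/P8-N (all probes 253). A fold cutoff can only lower a count. The cause of the other changes was not tested.

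Whether equal replicate numbers mark paired arrays was not settled. Each array was taken as its departure from the mean of its comparison. Among the 30 same-number pairs, r ran from -0.19 to 0.21, and 5 values exceeded 0.1. This range mixes comparisons that may share a pool of retinas with comparisons that share none, so it cannot tell whether the numbers pair the arrays. With the replicate number as a block, the counts were 4 in P12-O/P12-N and 25 in P9-N/P30-N, with *Cplx4* at P12 (adjusted p = 0.051) and *Stx3* (adjusted p = 0.068) no longer called, and unchanged in the other comparisons (0, 1, 9, 0, 1 and 6).

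Apart from the turned direction given last, ratios that were not called changed sign in 122 cases, 90 of them by less than 1 SE. The other 32 are given here, mostly as the range on leaving out an array. In P8-O/P8-N these were *Snap25* probe 1 -0.019 to 0.11, *Stxbp2* -0.060 to 0.085, *Vamp1* probe 1 -0.18 to 0.12, *Sv2a* probe 2 -0.021 to 0.35, *Cplx2* -0.55 to 1.12, *Rims2* -0.43 to 0.063, *Snap25* probe 2 -0.14 to 0.18. In P12-O/P12-N these were *Stxbp5* -0.10 to 0.16, *Unc13a* -0.36 to 0.10. In P13-O/P13-N these were *Vamp2* -0.11 to 0.13, *Stx3* probe 1 -0.12 to 0.30, *Stx7* -0.064 to 0.093, *Vamp1* probe 2 -0.086 to 0.069, *Pclo* probe 1 -0.10 to 0.14, *Syp* -0.11 to 0.21, *Snap25* probe 2 -0.19 to 0.24. In P13-O/P9-N these were *Cplx3* -0.26 to 0.19, *Vamp8* -0.00056 to 0.15, *Pclo* probe 2 -0.22 to 0.17. In P13-O/P13-N minus P8-O/P8-N these were *Vamp2* -0.054 to 0.19, *Stx3* probe 1 -0.081 to 0.34, *Cplx2* -1.47 to 0.20, *Rims2* -0.062 to 0.43, *Snap25* probe 2 -0.18 to 0.24. In P13-O/P13-N minus P12-O/P12-N these were *Snap25* probe 2 -0.32 to 0.10. In P13-O/P9-N minus P13-O/P13-N these were *Sv2a* probe 1 -0.047 to 0.26, *Snap25* probe 2 -0.15 to 0.27. With probes averaged per gene, sign changes took *Syn1* probe 2 to -0.067 in P8-O/P8-N, *Sv2a* probe 2 to 0.062 in P13-O/P13-N, *Vamp1* probe 2 to -0.011 in P13-O/P9-N, *Vamp1* probe 2 to 0.12 in P13-O/P13-N minus P8-O/P8-N, *Vamp1* probe 2 to -0.16 in P13-O/P9-N minus P13-O/P13-N.

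Turning the sign of the P13-O/P9-N ratios, an alternative added after seeing the data, left 9 calls there and 6 in the indirect P13-N/P9-N. The turned indirect values stand for P13-N over P9-N only if the turned direction is the true one. The turn reversed these named ratios by 1 SE or more or with a call. In P13-O/P9-N, where each is its own value with the sign turned, they became *Cplx4* -1.22, *Nsf* -0.72, *Rims2* -0.59, *Vamp2* -0.56, *Sv2b* -0.46, *Sv2a* probe 1 -0.36, *Cplx1* -0.33, *Sv2a* probe 2 -0.30, *Syt1* probe 1 -0.27, *Rab3a* -0.25, *Syp* -0.25, *Syt1* probe 2 -0.22, *Syn1* probe 1 -0.21, *Stx3* probe 1 -0.20, *Vamp4* -0.19, *Syn1* probe 2 -0.16, *Vamp1* probe 2 -0.13, *Stxbp5* -0.13, *Vamp8* -0.094, *Snap25* probe 2 -0.084, *Stx5a* 0.057, *Bsn* 0.068, *Stxbp2* 0.15, *Syt9* 0.15, *Vamp1* probe 1 0.16, *Stx1a* 0.20, *Stx7* 0.21, *Rims1* probe 2 0.23, *Pclo* probe 1 0.32, *Unc13a* 0.34, *Syt16* 0.38, *Cplx2* 1.56. In the indirect P13-N/P9-N they became *Cplx4* -1.23, *Nsf* -0.63, *Sv2a* probe 1 -0.60, *Rims2* -0.59, *Vamp2* -0.58, *Sv2b* -0.45, *Stx3* probe 1 -0.32, *Syp* -0.25, *Syt1* probe 1 -0.19, *Sv2a* probe 2 -0.18, *Vamp4* -0.16, *Vamp1* probe 2 -0.15, *Vamp8* -0.14, *Syt1* probe 2 -0.11, *Stxbp5* -0.088, *Rab3a* -0.028, *Syn1* probe 2 -0.014, *Syn1* probe 1 -0.0034, *Unc13a* 0.11, *Stx7* 0.19, *Stx1a* 0.22, *Syt9* 0.30, *Pclo* probe 1 0.31, *Rims1* probe 2 0.31, *Syt16* 0.51, *Cplx2* 1.91, and *Cplx1* fell short of a call at 0.046.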
